A study of Homo sapiens with 4 samples.

Results

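The integrins and laminins were described in 4 RNA-seq libraries from NT2, also called NTERA-2, a human line of embryonal carcinoma. Members were all genes whose symbol is that of an integrin alpha or beta subunit or of a laminin alpha, beta or gamma chain. This gave 38 of the 62696 genes in the count tables, namely 18 integrin alpha, 8 integrin beta, 5 laminin alpha, 4 laminin beta and 3 laminin gamma genes. Per the labels, 1 library (EV) came from cells with an empty vector, whose genotype is given as wild type, and 3 came from cells with a HYDIN2 knockdown, numbered 1 to 3. All 4 were the same cell line in the same serum-supplemented medium. The labels give neither the vector or agent of the knockdown nor whether its 3 replicates were separate cultures or constructs. Any p-value below rests on the spread between the labelled knockdown libraries alone, which may be technical. In the file headers the EV column is named as a LacZ control and the other columns as GKAP_KIF27 sets, names that the labels do not use.

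Integrins are cell surface receptors made of 1 alpha and 1 beta chain that tie the extracellular matrix to the actin cytoskeleton. Laminins are secreted trimers of 1 alpha, 1 beta and 1 gamma chain and are the main glycoproteins of basement membranes. Pluripotent human cells are known to attach to the laminin trimer of LAMA5, LAMB1 or LAMB2, and LAMC1, mainly through the receptor of ITGA6 and ITGB1, and to vitronectin through the receptor of ITGAV and ITGB5.

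Library totals were 25181737 counts for EV and 62904698, 61627449 and 28552070 counts for labelled knockdown replicates 1, 2 and 3. Levels are in CPM, the counts of a gene per 1000000 counts of the library, scaled by trimmed mean of M-values (TMM). A floor of 3 counts was 0.125 CPM in the EV library and between 0.0482 and 0.096 CPM in the others. HYDIN2 itself had 12 counts in the EV library and 150, 112 and 11 in the labelled knockdown libraries, or 0.5 CPM against 2.41, 1.88 and 0.352 CPM. The targeted gene thus went against the labels in replicates 1 and 2. In replicate 3 its ratio to the EV library, 0.704, had a 95% counting interval of 0.18 to 2.7, so no difference was detectable there. Hence "knockdown" below is the label only. All 10 markers of embryonal carcinoma cells on the list used were detected in every library, with summed levels of 8494 CPM in the EV library and 7843 to 9165 CPM in the others. Single markers differed: 5 of the 10 were below the EV library in all 3 others and 2 were above it. DNMT3B met the rule for a lower gene used below, with 795 CPM against 340, 350 and 349 CPM. POU5F1 had 42.8 CPM against 35.9, 38.5 and 19.4 CPM, and DPPA4 had 1398 against 1146, 1239 and 604 CPM. L1TD1 had 472 CPM against 241, 239 and 227 CPM, TDGF1 had 420 against 285, 331 and 138 CPM, and PODXL had 1838 against 2566, 2462 and 3865 CPM. The 6 leukocyte markers summed to 0.792 CPM against 0.736 to 1.64 CPM, with 2 of them at 0 in the EV library, and the 4 keratinocyte markers to 0.25 CPM against 0.064 to 0.268 CPM, with KRT1 at 0 in all 4. Summed levels of the 7 neural markers were 24.1 CPM against 49.1 to 63.4 CPM. MAP2, STMN2 and TUBB3 were above the EV library in all 3 others, MAP2 at 9.17 CPM against 24, 22.8 and 34.5 CPM. In replicate 3 DCX was near the EV level and ELAVL3 and ELAVL4 were below it, as was NEUROD1 in all 3. The 5 endothelial markers summed to 69.7 CPM against 120 to 154 CPM, with EMCN at 0 in all 4. TEK held most of that sum, at 62.1 CPM against 144, 142 and 115 CPM, while PECAM1 was lower in all 3. The 6 fibroblast markers summed to 500 CPM against 414 to 644 CPM. THY1 held most of that sum, at 362 CPM against 382, 394 and 210 CPM. PDGFRB met the rule for a higher gene, with 34.1 CPM against 94.6, 86.6 and 73.5 CPM, but not after trend removal. COL1A1 and COL1A2 were also above the EV library in all 3 others, COL1A2 at 11.4 CPM against 35.1, 36.9 and 11.6 CPM. LUM and THY1 were below it in replicate 3. The part of these shifts in the results below was not tested, and in bulk RNA a different share of cells and a different amount of RNA per cell cannot be told apart.

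Members as a group took more of the RNA in the labelled knockdown libraries. They held 0.132% of all counts in the EV library and 0.266%, 0.244% and 0.247% in labelled knockdown replicates 1, 2 and 3. Laminins accounted for the larger part of this, with a summed level of 516 CPM in the EV library and 1234, 1146 and 1171 CPM in the others. The integrin alpha genes summed to 372 CPM against 689, 632 and 566 CPM. The integrin beta genes summed to 492 CPM against 766, 739 and 519 CPM, so replicate 3 lay close to the EV library there. The 29 members with a mean of the group mean CPMs of at least 1 were compared further. The rule for a higher or lower gene was a log2 CPM, with a prior count of 2, that differed from EV by 1 or more with the same sign in each of the 3 labelled knockdown libraries. By this rule 5 of 29 members were higher, against 3.66% of all 15880 genes compared, and 2 were lower, against 2.72%. The higher members were LAMA5, LAMB1, LAMB2, LAMC1 and ITGB8, and the lower ones were ITGA2B and ITGAX. With no minimum size, 16 members lay above the EV library in all 3 libraries, against 30.1% of all genes, and 2 lay below it, against 34.2%. For 13 members, all 3 ratios to the EV library had 95% counting intervals above 1, against 17.7% of all genes, and for 2 all 3 lay below 1, against 22.2%.

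**Figure D1:**
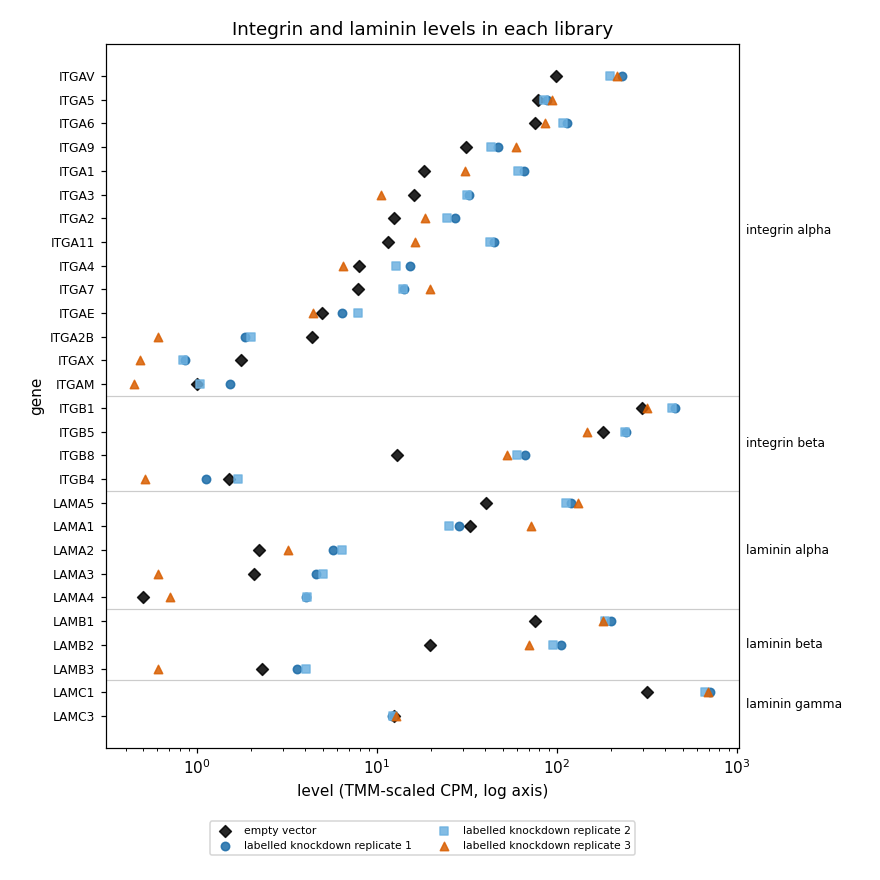
Level of 28 compared members in each library (x axis: TMM-scaled CPM, log axis; rows: genes by chain class; 1 point per library). LAMC1, the most abundant member by CPM, had 317 CPM in the EV library (black diamond) and 662 to 713 CPM in the others, while LAMA3 and LAMB3 had their lowest value in replicate 3 (orange triangle).

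The chains of the LAMA5 laminins were higher together in all 3 labelled knockdown libraries. LAMA5, the alpha chain of the broadly expressed basement membrane laminins, had 40.1 CPM in the EV library and 120, 113 and 131 CPM in replicates 1, 2 and 3. The mean level, 121 ± 8.75 CPM (SD, n = 3), exceeded that of EV 3.03-fold. LAMB1, the beta chain that pairs with it in the trimer best known from stem cell culture, had 75.7 CPM against 199, 184 and 181 CPM, or 2.48 times as much in the mean. LAMB2, the alternative beta chain, had 19.8 CPM against 106, 95.3 and 69.6 CPM, a 4.56-fold higher mean. LAMC1, the gamma chain shared by most laminins, had 317 CPM against 713, 662 and 692 CPM. The mean level of LAMC1, 689 ± 25.8 CPM (SD, n = 3), exceeded that of EV 2.17-fold. All 4 genes lie apart from each other: on GRCh38 in GENCODE 29, LAMA5 is at chr20:62307955-62367312 and LAMB2 at chr3:49121114-49133118 on the minus strand. LAMB1 is at chr7:107923799-108003255, also on the minus strand, and LAMC1 at chr1:183023460-183145592 on the plus strand. LAMA5 shares exon bases with ADRM1 and LAMA5-AS1 on the other strand and with MIR4758 on its own, and LAMB1 with DLD, so their counts are uncertain to that extent. None of the 4 had a labelled knockdown library within the counting interval of the EV library: the lowest bound of any ratio was 2.02, for LAMC1 in replicate 2. Mean log2 differences were 1.59 ± 0.10 for LAMA5, 1.31 ± 0.07 for LAMB1, 2.16 ± 0.32 for LAMB2 and 1.12 ± 0.05 for LAMC1 (SD, n = 3). After removal of the trends with transcript length and GC content, the means were 1.05, 1.09, 2.04 and 0.65 in the same order, and LAMA5 and LAMC1 no longer met the rule.

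Because these chains and ITGB8 were the higher members, their promoters are shown. Each is a window of 300 bases placed by RefSeq around its own transcript start on GRCh38.p14, which can differ from the GENCODE gene start. Of the window, 250 bases lay ahead of the GENCODE start in LAMA5, 156 in LAMB1, 182 in LAMB2, 290 in LAMC1 and 52 in ITGB8, so most of the ITGB8 window is within the GENCODE gene. Capitals mark each match to the GC box GGGCGG or its complement CCGCCC, the core of the sites bound by SP1-type factors. Adjacent matches can overlap, as in LAMB1.
LAMA5 (chr20:62367263-62367562, minus strand): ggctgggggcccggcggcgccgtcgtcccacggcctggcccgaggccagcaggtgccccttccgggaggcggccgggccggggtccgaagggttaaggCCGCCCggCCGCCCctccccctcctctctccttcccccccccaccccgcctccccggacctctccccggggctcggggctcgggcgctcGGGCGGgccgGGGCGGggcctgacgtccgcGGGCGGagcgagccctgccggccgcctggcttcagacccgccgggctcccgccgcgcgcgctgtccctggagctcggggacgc
LAMB1 (chr7:108003112-108003411, minus strand): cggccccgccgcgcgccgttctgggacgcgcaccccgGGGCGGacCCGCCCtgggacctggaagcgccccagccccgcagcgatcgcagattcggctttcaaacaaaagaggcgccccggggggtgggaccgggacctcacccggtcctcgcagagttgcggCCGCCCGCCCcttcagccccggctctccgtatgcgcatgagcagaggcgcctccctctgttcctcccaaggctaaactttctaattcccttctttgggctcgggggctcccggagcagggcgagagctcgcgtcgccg
LAMB2 (chr3:49133001-49133300, minus strand): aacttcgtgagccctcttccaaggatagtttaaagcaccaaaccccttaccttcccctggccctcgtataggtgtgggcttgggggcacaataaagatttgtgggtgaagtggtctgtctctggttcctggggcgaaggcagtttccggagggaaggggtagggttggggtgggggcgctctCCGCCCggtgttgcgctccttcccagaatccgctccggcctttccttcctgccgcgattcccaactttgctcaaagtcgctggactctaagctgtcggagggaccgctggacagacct
LAMC1 (chr1:183023170-183023469, plus strand): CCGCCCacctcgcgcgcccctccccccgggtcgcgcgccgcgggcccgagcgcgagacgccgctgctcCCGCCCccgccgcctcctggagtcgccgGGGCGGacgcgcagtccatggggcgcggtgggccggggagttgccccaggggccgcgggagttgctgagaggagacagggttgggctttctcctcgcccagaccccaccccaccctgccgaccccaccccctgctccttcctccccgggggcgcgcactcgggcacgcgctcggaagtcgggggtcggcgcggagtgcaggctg
ITGB8 (chr7:20330650-20330949, plus strand): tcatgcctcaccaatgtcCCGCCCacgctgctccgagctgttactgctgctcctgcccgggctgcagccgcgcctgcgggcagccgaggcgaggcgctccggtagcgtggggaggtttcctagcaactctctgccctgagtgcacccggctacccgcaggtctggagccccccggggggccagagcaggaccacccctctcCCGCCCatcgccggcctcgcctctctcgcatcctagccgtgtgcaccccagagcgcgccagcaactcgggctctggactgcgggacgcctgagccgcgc

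All 5 promoters held at least 1 GC box, with 5 matches in LAMA5, 4 in LAMB1, 1 in LAMB2, 3 in LAMC1 and 2 in ITGB8. The same letters were present in 45% of all 35116 promoters in the table and in 18 of the 28 promoter entries of compared members, the 5 included. GC content was 82.7% in LAMA5, 79.0% in LAMC1, 71.7% in ITGB8, 71.0% in LAMB1 and 58.7% in LAMB2, against a median of 58.7% over all promoters. A TATA box (TATAAA, both strands) was in none of the 5 and in 11.5% of all promoters. AP-1 letters (TGANTCA) were also in none of the 5, against 7.71%, and a CCAAT box (CCAAT, both strands) was in ITGB8 alone, against 34.6%. The table held an entry for 26 of the 38 members. These matches describe letters in this window.

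LAMA3 and LAMB3, chains of a laminin that anchors epithelia through hemidesmosomes, had another order of libraries. Both were above the EV library in replicates 1 and 2 and below it in replicate 3. LAMA3 had 2.08 CPM in the EV library and 4.55, 5.01 and 0.608 CPM in replicates 1, 2 and 3. LAMB3 had 2.29 CPM against 3.57, 4.05 and 0.608 CPM. For both chains the SD of the log2 difference between replicates, 1.67 for LAMA3 and 1.48 for LAMB3, exceeded the mean difference, so no shared direction was measured. ITGB4, the integrin beta chain of hemidesmosomes that joins ITGA6 to bind this laminin, was low throughout, at 1.5 CPM against 1.12, 1.68 and 0.512 CPM. ITGA3, the other main receptor chain for it, had 16.1 CPM against 32.4, 31.7 and 10.5 CPM. Both were thus also lowest in replicate 3.

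The remaining laminin chains showed 3 further patterns. LAMA1, the alpha chain of the early embryonic basement membrane, had 32.9 CPM in the EV library, 28.6 and 25.2 CPM in replicates 1 and 2, and 71.9 CPM in replicate 3. It was the only compared member at least 2-fold higher in replicate 3 than in both other labelled knockdown libraries. LAMA4, a chain of vascular and mesenchymal laminins, had 0.5 CPM against 4.03, 4.09 and 0.704 CPM, from 12 counts in the EV library and 22 in replicate 3. The ratio for replicate 3 had an interval of 0.477 to 4.64, so a difference was not detectable at that depth. LAMA2, the alpha chain of muscle and nerve laminins, had 2.21 CPM against 5.72, 6.35 and 3.2 CPM, and again the interval for replicate 3, 0.888 to 2.42, held 1. LAMC3, a gamma chain of restricted expression, had 12.4 CPM in the EV library and 12.1, 12.2 and 12.8 CPM in the others, with all 3 intervals holding 1 (0.803 to 1.18, 0.813 to 1.20 and 0.832 to 1.29).

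Among integrin beta chains, ITGB8 stood at least 2-fold above the EV library in every labelled knockdown library. ITGB8 (chr7:20330702-20415754, plus strand) pairs only with ITGAV and is known for binding latent TGF-beta. It had 12.9 CPM in the EV library and 66.2, 59.9 and 52.8 CPM in replicates 1, 2 and 3. The mean level, 59.7 ± 6.7 CPM (SD, n = 3), exceeded that of EV 4.63-fold. The ratios were 5.15 (95% counting interval 4.37 to 6.10), 4.65 (3.94 to 5.52) and 4.1 (3.45 to 4.91). ITGAV, its partner and the alpha chain of the vitronectin receptors, had 98.9 CPM against 229, 197 and 217 CPM. The mean level, 214 ± 16.2 CPM (SD, n = 3), exceeded that of EV 2.17-fold, but the log2 difference of replicate 2 was 0.99, just short of the rule. With total counts as the scaling, or without replicate 2, ITGAV also met the rule. After removal of the length and GC trends it lay further from the rule, with 0.75, 0.57 and 0.84 in replicates 1, 2 and 3.

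ITGB3, ITGB5 and ITGB6 also pair with ITGAV, and only ITGB5 reached the minimum level. ITGB5, a vitronectin receptor chain, had 181 CPM in the EV library and 243, 238 and 147 CPM in replicates 1, 2 and 3, above it in 2 libraries and below it in 1. ITGB3 had 14 counts in the EV library and between 32 and 60 in the others, at most 1.02 CPM, and ITGB6, the beta chain of epithelial ITGAV receptors, had 0 counts against 6, 10 and 8. Per length, ITGB8 made up 3.42% of ITGB3, ITGB5, ITGB6 and ITGB8 together in the EV library and 11.9%, 11.1% and 15.1% in the labelled knockdown libraries. ITGB5 remained the largest of the 4, at 96.2% against 87.7%, 88.5% and 84.1%. ITGB1, the most abundant beta chain, is not part of these shares. Of all integrin beta chains per length, ITGB8 made up 1.21% in the EV library and 4.12%, 3.85% and 4.87% in the others. Division by length does not remove the trend of library differences with transcript length from these shares.

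ITGB1, the beta chain shared by most matrix receptors, was the most abundant integrin by CPM. It had 296 CPM in the EV library and 454, 438 and 317 CPM in replicates 1, 2 and 3, with a mean log2 difference of 0.43 ± 0.29 (SD, n = 3). Replicate 3 was 1.07 times the EV level (1.03 to 1.12), a difference beyond counting error between those libraries but small beside the spread between replicates. ITGA6, its partner for laminin in pluripotent cells, had 75.8 CPM against 114, 108 and 86 CPM, or 0.42 ± 0.21 on the log2 scale. ITGA7, the laminin receptor chain of muscle, had 7.83 CPM against 14.2, 13.9 and 19.7 CPM, a mean log2 difference of 1.00 ± 0.28 (SD, n = 3). The main laminin receptor chains, ITGA3, ITGA6, ITGA7, ITGB1 and ITGB4, gave 0 of 5 at least 2-fold higher in all 3 libraries. The laminin chains gave 4 of 11, against 3.66% of all genes and 8.12% of genes of at least 5000 nt. After trend removal the laminin chains gave 2 of 11, against 2.96% of all genes. The difference between the receptor and ligand counts was not tested.

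Of the collagen receptor chains, ITGA1, ITGA2 and ITGA11 were above the EV library in all 3 labelled knockdown libraries, with the smallest difference in replicate 3. ITGA1 had 18.2 CPM against 65.4, 60.5 and 31.0 CPM. ITGA11, the receptor chain for fibrillar collagen in mesenchymal cells, had 11.5 CPM against 44.5, 42.2 and 16.3 CPM. ITGA2 had 12.5 CPM against 27.1, 24.5 and 18.5 CPM. Their lowest ratios, 1.70, 1.41 and 1.48 in replicate 3, had lower bounds of 1.45, 1.14 and 1.21. After removal of the length and GC trends, the log2 differences of replicate 3 were 0.09, -0.25 and 0.11 in the same order. Those of replicates 1 and 2 then lay between 0.49 and 1.37. ITGA10, the chondrocyte collagen receptor chain, reached 1.43 and 1.31 CPM in replicates 1 and 2 from 0.417 CPM in the EV library, and had 0.256 CPM in replicate 3. ITGA1 shares exons on its strand with PELO, so its counts are uncertain.

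The fibronectin receptor chain ITGA5 differed little, with 78.8 CPM in the EV library and 87.6, 84.8 and 94.2 CPM in the others, a mean log2 difference of 0.17 ± 0.08 (SD, n = 3). ITGA9, a receptor chain for tenascin and osteopontin, had 31.2 CPM against 46.9, 43.0 and 59.4 CPM. ITGA4, which binds fibronectin and VCAM1, had 7.92 CPM against 15.2, 12.7 and 6.46 CPM, with replicate 3 on the other side of the EV library. ITGAE, known from intraepithelial lymphocytes, had 4.92 CPM against 6.36, 7.79 and 4.42 CPM. ITGAE overlaps HASPIN on the other strand, and the strand setting of the counting is not given in the sources used here.

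The lower members were both integrin alpha chains best known from blood cells. ITGA2B, the platelet fibrinogen receptor chain, had 4.33 CPM in the EV library and 1.85, 1.98 and 0.608 CPM in replicates 1, 2 and 3, with ratios of 0.426, 0.456 and 0.14. ITGAX, a complement receptor chain of myeloid cells, had 1.75 CPM against 0.851, 0.838 and 0.48 CPM, from 42 counts against 53, 50 and 15. ITGAX lay at the edge of the rule, with a ratio to EV closest to the 2-fold limit in replicates 1 and 2. It was no longer called with total counts as the scaling or with a prior count of 5. ITGAM, another complement receptor chain, had 1.00 CPM against 1.53, 1.04 and 0.448 CPM. Of the leukocyte chains ITGAL, ITGAM, ITGAX, ITGAD, ITGAE, ITGB2 and ITGB7, only ITGAE, ITGAM and ITGAX reached the minimum level. The 9 members below it, ITGA8, ITGA10, ITGAD, ITGAL, ITGB2, ITGB3, ITGB6, ITGB7 and LAMB4, had between 0 and 89 counts in a library and none above 1.43 CPM.

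**Figure D2:**
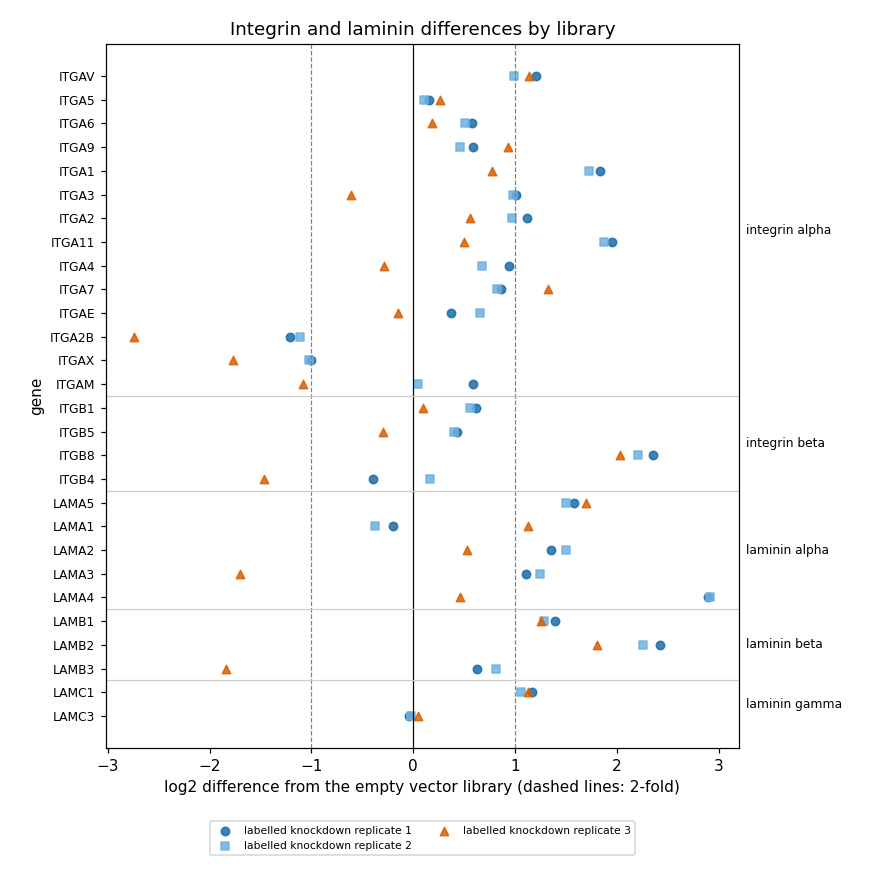
Log2 difference of each labelled knockdown library from the EV library for 28 compared members (x axis; dashed lines at 2-fold; rows: genes by chain class; 1 point per library). The points of LAMC1, LAMB1 and LAMA5 lie close together to the right of the 2-fold line, between 1.06 and 1.70, whereas those of LAMA3 span -1.70 to 1.25.

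Reading receptors and ligands per length showed which chains could be most abundant. Levels between genes are given here as CPM per kb of the longest annotated transcript. This division does not remove the trend of library differences with transcript length, so shares and ratios of chains of unlike length still carry it. ITGB1 was the highest integrin beta chain in all 4 libraries, with 64.3% of the class in the EV library and 65.3%, 65.1% and 67.6% in the others. ITGB5 was next in all 4, with 34.0% against 30.3%, 30.7% and 27.1%. Among alpha chains the order differed between the groups. ITGA5, ITGAV and ITGA6 were near one another in the EV library, with 25.5%, 22.8% and 21.8% of the class. ITGAV ranked first in all 3 labelled knockdown libraries, with 30.6%, 28.6% and 34.6%, while ITGA5 had 16.5%, 17.3% and 21.1%. The ratio of ITGAV to ITGA5 per length was 0.892 in the EV library and 1.86, 1.65 and 1.64 in the others. These shares and ratios depend on the transcripts assumed. The longest transcripts of ITGA5, ITGAV and ITGA6 have 4996, 7030 and 5618 nt, and their mean lengths are 1343.3, 2492.8 and 2276.5 nt.

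For laminins, LAMC1 supplied 90.8% of the gamma chains per length in the EV library and 90.9%, 90.6% and 96.1% in the others. LAMB1 ranked above LAMB2 in all 4 libraries, but their ratio was 3.75 in the EV library and 1.84, 1.90 and 2.56 in replicates 1, 2 and 3. LAMA5 and LAMA1 took 48.9% and 44.1% of the alpha chains in the EV library. LAMA5 took 70.6%, 70.4% and 60.6% in the labelled knockdown libraries, and LAMA1 took 18.5%, 17.2% and 36.7%. With the mean annotated transcript length in place of the longest, the LAMA5 share was 70.2% in the EV library and 83.2% in the mean of the others, so its size depends on the transcripts assumed. Summed per length, gamma chains exceeded beta chains and beta chains exceeded alpha chains in every library, at 44.3, 17.2 and 7.18 CPM per kb in the EV library. All 3 classes were at least 1.96 times as high in each labelled knockdown library, with the length and GC trends left in. After removal of those trends, LAMC1, the main gamma chain, had log2 differences of 0.71, 0.66 and 0.58 in replicates 1, 2 and 3.

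**Figure D3:**
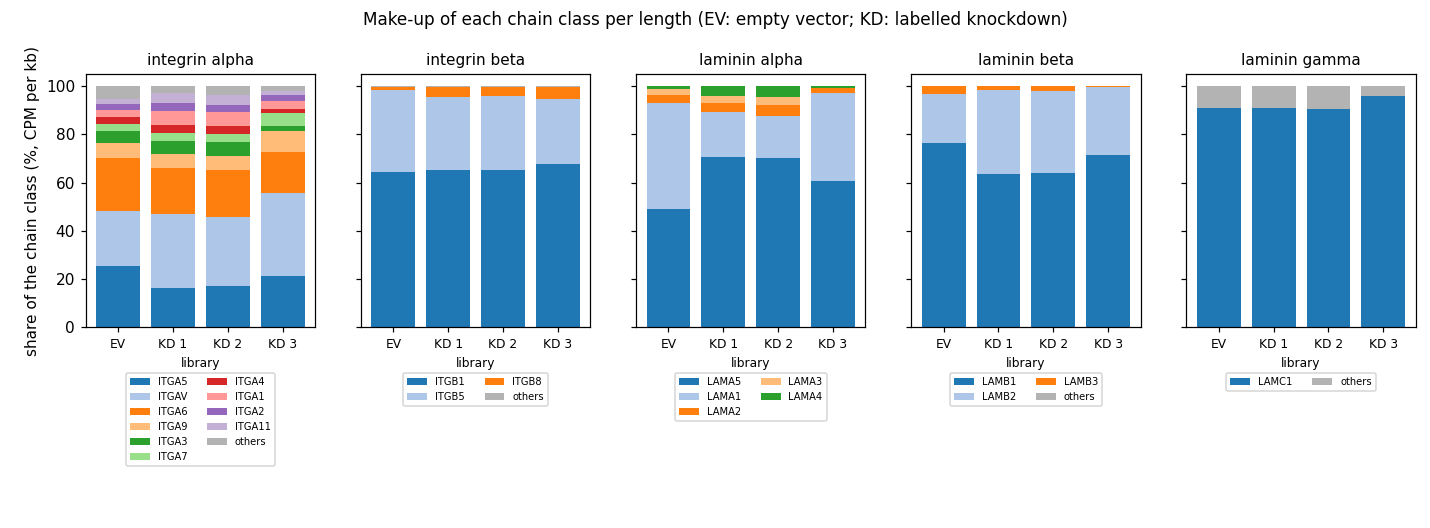
Make-up of each chain class per length in each library (y axis: percent of the summed CPM per kb of the class; bars: empty vector, EV, and labelled knockdown, KD, 1 to 3; chains under 3% in every library, and the laminin gamma chains other than LAMC1, are pooled as others). The LAMA5 part of the alpha chains is 48.9% in the EV library and 60.6% to 70.6% in the others, and the ITGAV part of the integrin alpha chains is 22.8% against 28.6% to 34.6%.

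Replicate 3 stood apart from replicates 1 and 2 for many members, which bears on every count given. Among the 29 members, 9 were at least 2-fold lower in replicate 3 than in both others, against 13.1% of all genes, and 1 was higher, against 6.19%. Those lower included LAMA3, LAMA4, LAMB3, ITGA2B, ITGA3, ITGA11, ITGAM and ITGB4, and the 1 higher was LAMA1. LAMA3 had the largest such difference, -2.81 and -2.95 on the log2 scale from replicates 1 and 2. None of LAMA5, LAMB1, LAMB2, LAMC1, ITGB8 and ITGAV was among them. With replicates 1 and 2 alone, 11 members were at least 2-fold higher, against 9.77% of all genes, and 2 were lower, against 5.35%. Those added included ITGA1, ITGA11, LAMA2, LAMA3 and LAMA4.

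**Figure D4:**
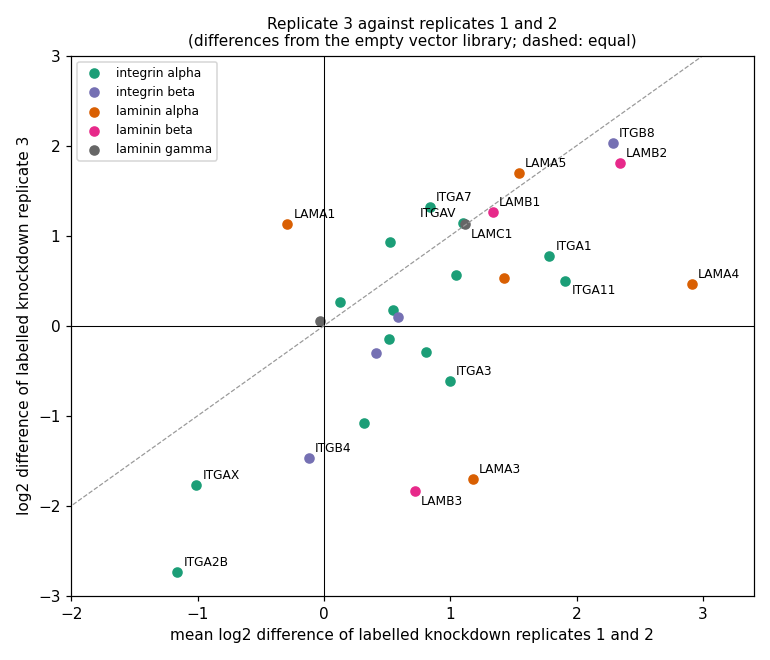
Log2 difference from the EV library in labelled knockdown replicate 3 (y axis) against the mean of replicates 1 and 2 (x axis) for 28 compared members, 1 point per gene coloured by chain class. ITGB8, LAMB2, LAMA5, LAMB1, LAMC1 and ITGAV lie near the dashed line of equality, and LAMA3 and LAMB3 lie above 0 on the x axis and below 0 on the y axis.

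The count test called no member. edgeR's quasi-likelihood test with Benjamini-Hochberg adjustment over 26029 genes called 0 of 37 members tested and 0 genes in all (0%). The smallest adjusted p of a member in this edgeR test was 0.358. At an unadjusted p under 0.05 there were 9 members, all higher, against 11.6% of all genes: ITGA1, ITGA2, ITGA7, ITGAV, ITGB8, LAMA5, LAMB1, LAMB2 and LAMC1. limma with voom also called 0 members. The Wald test of DESeq2 called 3 members higher, against 1.15% of genes, namely ITGB8 (adjusted p = 0.000267), LAMB2 (adjusted p = 0.000626) and LAMA5 (adjusted p = 0.0165). Without replicate 3, edgeR's test called 26 of 36 members, against 44.7% of all genes. These tests take their spread from the labelled knockdown libraries alone, and set them against 1 library rather than against a condition.

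The members are long genes, and the libraries differed by transcript length. The 29 members had a median longest transcript of 5766 nt, against 3519 nt over all genes with a length. Across all 15485 such genes, which are not independent replicates, the Spearman correlation of length with the log2 difference was 0.347, 0.298 and 0.46 in replicates 1, 2 and 3. Among genes of at least 5000 nt, 8.12% were higher by the rule and 0.431% lower, and of the 19 members of that length 5 were higher and 0 lower. The median log2 difference was 1.12 for the 11 laminins, 0.45 for the 14 integrin alpha genes, 0.30 for the 4 integrin beta genes, 0.36 for all genes of at least 5000 nt and -0.02 for all genes. After removal of smooth trends on length and GC content, 3 members were higher, against 2.96% of genes, and 1 was lower, against 1.45%. LAMB1, LAMB2 and ITGB8 still met the rule, with mean log2 differences of 1.09, 2.04 and 1.66. LAMA5 did not, with 1.12, 1.13 and 0.90 in replicates 1, 2 and 3, nor did LAMC1, with 0.71, 0.66 and 0.58. ITGA2B also lost its call, with -1.08, -0.99 and -2.50.

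**Figure D5:**
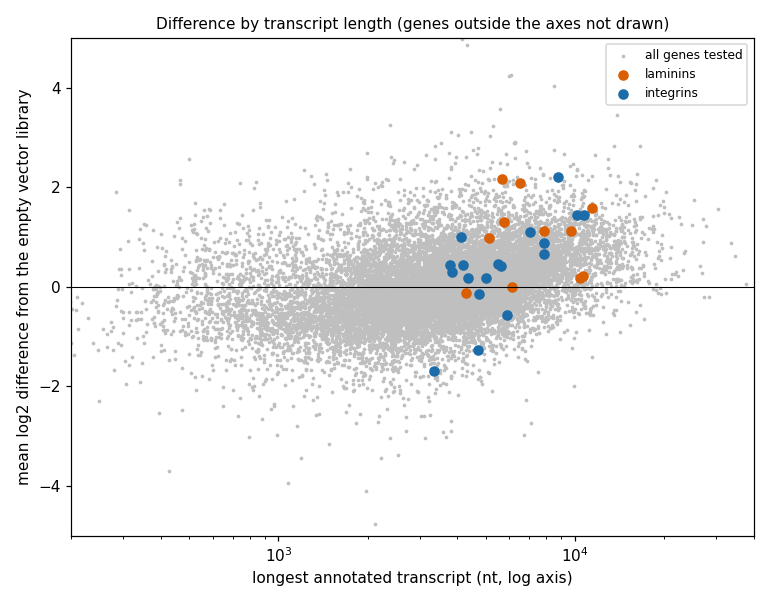
Mean log2 difference from the EV library (y axis) against the longest annotated transcript (x axis, nt, log axis) for all genes compared (grey) and the compared laminins (orange) and integrins (blue), 1 point per gene. The members sit in the long part of the cloud, and the cloud as a whole tilts upwards with length.

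Other genes of the same adhesion system were read from lists of partners. Of the extracellular partners of integrins and laminins, 23 of 28 were compared, 7 were at least 2-fold higher in all 3 libraries and 0 lower, with a median log2 difference of 0.61. Over all genes 3.66% were higher and 2.72% lower, and among genes of at least 5000 nt 8.12% were higher. TNC, the tenascin bound by ITGA9 and ITGAV receptors, had 68.9 CPM in the EV library and 418, 381 and 293 CPM in the others. FN1, the fibronectin bound by ITGA5, had 232 CPM against 1130, 1042 and 891 CPM. THBS1, a matricellular thrombospondin, had 43.8 CPM against 272, 222 and 158 CPM. HSPG2, the basement membrane proteoglycan perlecan, had 33.5 CPM against 84.5, 75.7 and 93.9 CPM, and FBN1, a microfibril protein, had 16.6 against 42.6, 40.8 and 55.5 CPM. The other two were POSTN and NID1, named here after their values were seen. NID1, the nidogen that binds laminin gamma chains, had 82.5 CPM against 194, 181 and 201 CPM. After trend removal TNC, FN1, THBS1 and POSTN met the rule and HSPG2, FBN1 and NID1 did not. SPP1, the integrin ligand osteopontin and the most abundant of the list per length in the EV library, had 375 CPM against 369, 353 and 328 CPM.

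For the lists that follow, the same 3.66% and 2.72% of all genes apply, and differences between lists were not tested. Of 36 cytoplasmic proteins of integrin adhesions, such as talins, vinculin and kindlins, 35 were compared, 0 were higher and 0 lower by the rule, and their median log2 difference was 0.30. ZYX, the most abundant of them per length in the EV library, had 412 CPM against 471, 483 and 365 CPM. Of 21 genes of the dystroglycan complex, its glycosylation and other laminin receptors, 20 were compared and 1 was higher, with a median of 0.32. This was UTRN, the utrophin that links dystroglycan to actin, at 51.6 CPM against 165, 154 and 153 CPM. After trend removal UTRN no longer met the rule, with 0.96, 0.92 and 0.70 in replicates 1, 2 and 3. RPSA, a ribosomal protein also described as a laminin receptor, had 3544 CPM against 2271, 2475 and 1481 CPM. Of 11 membrane partners of integrins all were compared, none met the rule, and the median was -0.15. BSG, the highest of these per length in the EV library, had 524 CPM against 404, 414 and 389 CPM.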

How the data were processed

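Ribosomal RNA was removed before strand-specific library preparation, per the labels' protocols. The authors deposited raw counts per gene, 1 table per library. The submitters' processing notes name STAR 2.7.11b, featureCounts 2.0.6, DESeq2 and GRCh38; annotation release and strand setting are not given in the sources used here. Between 65.2% and 68.0% of nonzero counts were even; 95% intervals (exact binomial, counting error only) used counts divided by 2, since both reads of a pair may have been counted.

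TMM factors came from genes kept by filterByExpr in edgeR 4.0.16 (R 4.3.3). DESeq2 1.42.0 and voom in limma 3.58.1 were alternatives. Transcript lengths, GC content and overlaps came from GENCODE 29 on GRCh38, which matched 58269 of 62696 identifiers. Of the 29 members compared, 14 overlap no exon of another gene; the others are uncertain to that extent. Trends were removed by lowess with a span of 0.3. On simulated counts edgeR's test recovered few of the changed genes, while the fold rule recovered most of them but also called unchanged genes. Whether the same holds for the sizes of difference and the spread between replicates in these libraries was not tested. Members with a mean CPM of at least 1 are given by library, and partners by the rule and by the highest level per length. Members, lists and tests were chosen with earlier results of these data known. A member is counted but not reported by name here. Other alternatives were scaling, prior count, minimum CPM, fold and each labelled knockdown library left out.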

Additional observations from a re-analysis of the deposited data

How the results depend on the processing

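No paired analysis was possible because EV is a single, unnumbered library. The 5 higher members were 5 or 6 under the other scalings, prior counts and minimum levels run; they were 3 after removal of length and GC trends, 8 with a 1.5-fold rule and 11 with a 2-fold rule on the mean, while all genes went from 581 to 458, 1588 and 1354. Leaving out 1 labelled knockdown replicate gave 5 to 11 members and 616 to 1543 genes. The 2 lower members were 1 with total counts, with a prior count of 5 and after trend removal, 0 with a minimum mean CPM of 5, and 2 without any 1 replicate. The median log2 difference of all members, 0.46, was 0.88 with a minimum mean CPM of 5, and between 0.47 and 0.84 without 1 replicate. That of laminins, 1.12, was 0.65 after trend removal. Trend removal moved 24 of 29 member differences downwards and 12 by more than 1 SD, and 2 changed sign (LAMA1 to -0.43 and LAMA3 to -0.41). No gene passed edgeR's test over all libraries; 253 genes and 3 members passed with DESeq2. Without 1 replicate, edgeR called 17 to 11177 genes and 0 to 26 members, the largest numbers without replicate 3. Depth limits ITGA8, ITGAD, ITGAL, ITGB6, ITGB7 and LAMB4, with at most 29 counts in any library.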

Other observations

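Several members lie next to each other in the genome, and their values are given side by side. LAMB1 and LAMB4, 20292 bases apart on the minus strand of chromosome 7, had 75.7 and 0.0833 CPM in the EV library, the latter from 2 counts. ITGA1 and ITGA2, 30115 bases apart on the plus strand of chromosome 5, were both above the EV library in all 3 others, with mean log2 differences of 1.44 ± 0.59 and 0.88 ± 0.29 (SD, n = 3). ITGAM, ITGAX and ITGAD follow each other on chromosome 16 with gaps of 22241 and 10314 bases, and none exceeded 1.75 CPM in any library.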
